A study of Saccharomyces cerevisiae with 2 samples.

Results

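The Ras and protein kinase A (PKA) pathway genes were described in budding yeast (Saccharomyces cerevisiae) whose histone H3 carried arginine in place of lysines 4, 36 and 79. The 9 genes RAS1, RAS2, CYR1, TPK2, TPK3, BCY1, PDE1, PDE2 and GPR1 were taken by their annotated symbol from the probe sets assigned to a single gene. All 9 were found, on 17 of the 9335 probe sets, among 5656 named genes with a signal above 0 on both arrays. The single group of the series was the H3 K4,36,79R mutant, 12 h after cells in galactose medium were given glucose medium, both selective. Per the series' design text, glucose shut off a wild-type H3 gene that the cells carried, so that the mutant supplied their H3. Cells were taken at mid-log density, and 2 replicate cultures were each measured on an Affymetrix array. The promoter of the wild-type copy, the strain background, and whether the 2 cultures came from separate transformants were not given in the sources used here. Wild-type cells and other times were not analysed here, so the values describe the mutant and the spread between its 2 cultures, and no test between groups exists.

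In yeast, Ras proteins are small GTPases that switch on adenylyl cyclase, the enzyme that makes cyclic AMP (cAMP). Cyclic AMP binds the regulatory subunit Bcy1 and frees the catalytic subunits of PKA, Tpk2 and Tpk3 among them, while phosphodiesterases break cAMP down and end the signal. Glucose feeds the pathway through Ras and through the receptor Gpr1 with its G protein Gpa2, and active PKA favours growth and keeps the stress transcription factors Msn2 and Msn4 out of the nucleus. Much of this control acts on proteins and on cAMP, which an RNA array does not measure.

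Values are MAS5 signals on a linear scale, with the SD over the 2 arrays (n = 2). The median signal of all probe sets was 28.4 on replicate 1 and 27.5 on replicate 2. Background was read from 9 E. coli control probe sets of the opposite strand, which reached 3.39 on replicate 1 and 4.07 on replicate 2. The log2 signals of the arrays correlated with Pearson's r of 0.989 across named genes, which are not independent of each other. GAL1, GAL7 and GAL10, which galactose switches on and glucose represses, lay at 8.20 ± 0.248, 17.3 ± 2.99 and 29.8 ± 1.79, each under 42.0, the median of the named genes' mean signals. Probe sets differ in how well they hybridise, and members were therefore not ranked against each other.

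All 9 members gave signal above the opposite-strand controls on both arrays. Their median was 62.8 on replicate 1 and 61.5 on replicate 2, or 62.2 ± 0.88, beside 42.0 and 41.4 for the same medians over all named genes. The mean signal of 7 of the 9 lay above the median gene, and TPK3 and CYR1 lay below it. The CYR1 value averages 9 probe sets from 0.219 to 83.4 in mean signal, so its low place depends on that averaging. Members fell on 8 chromosomes, and no 2 of them were neighbours on a chromosome in the RefSeq order. Of the 9 members, 8 differed between the cultures by less than 1.2-fold, as did 83.3% of all named genes and 89.6% of the 4242 genes kept by a signal filter. GPR1 differed by 1.54-fold. The filter kept genes whose mean log2 signal was at or above the 25th percentile, a signal of about 19.2. It kept 8 members and left out CYR1.

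**Figure D1:**
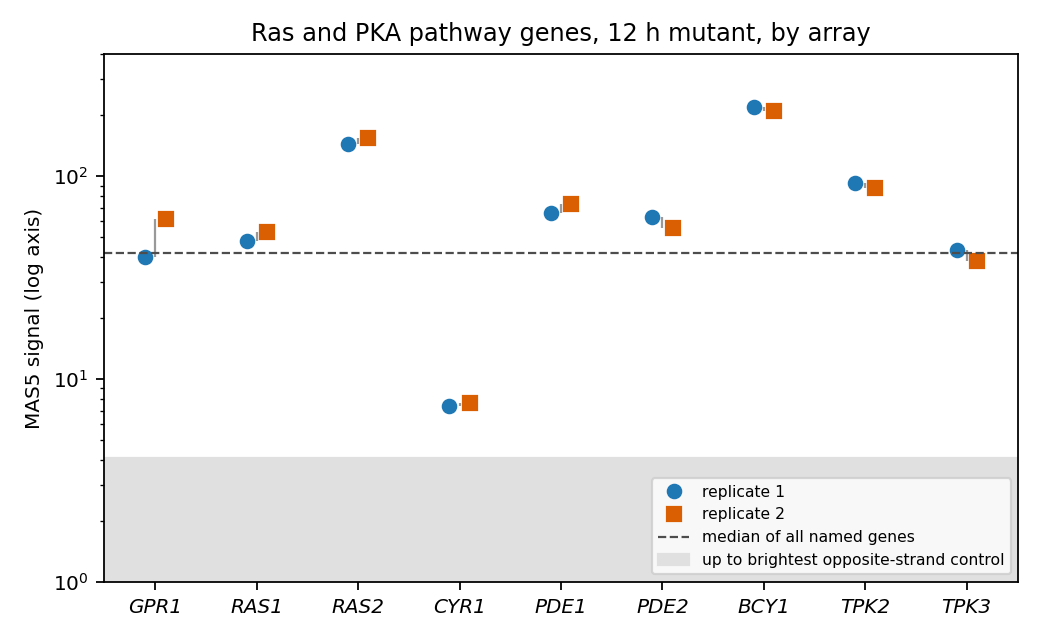
Signal of each Ras and PKA pathway gene (log axis) on replicate 1 (circles) and replicate 2 (squares), with a dashed line at the median of all named genes (42.0) and grey up to the brightest opposite-strand control (4.07). The 2 arrays lie close for every gene but GPR1, at 40.0 and 61.5, and the low place of CYR1 is the mean over probe sets that differ widely.

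GPR1 (YDL035C, chromosome IV) encodes the plasma membrane receptor that senses glucose and sucrose. Its single probe set read 40.0 on replicate 1 and 61.5 on replicate 2, a mean of 50.8 ± 15.2. GPR1 was therefore brighter on replicate 2, with a log2 ratio of replicate 2 to replicate 1 of 0.62. GPR1 was the 1 member past 1.5-fold, a size that 1.51% of kept genes passed in either direction, 0.306% as higher and 1.2% as lower on replicate 2. No member passed 2-fold, which 0.519% of kept genes did. Of the 200 kept genes nearest to GPR1 in signal, 1 had a ratio as large in size. With an array on each side there is no replicate check on this difference, and no p-value is given.

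The surroundings of the GPR1 value were read in the same way. On the chromosome, PUS9 and SLM3 flank GPR1, and they read 20.6 and 21.1, and 14.9 and 16.7, on replicates 1 and 2. The 10 probe sets with the nearest numbers had a median log2 ratio of 0.0084 and ranged from -0.21 to 0.22. None of these 10 reached 1.5-fold, which 3.41% of all named genes did. The GPR1 probe set number, 6517, lies within a run of numbers, 6178 to 6594. That run was drawn around 10 of the 20 kept genes past 2-fold lower on replicate 2. Of its 271 probe sets of kept genes, 5.17% were past 1.5-fold lower on replicate 2 and 0.738% past 1.5-fold higher. GPR1 was among the higher. Its log2 ratio minus that of its number neighbours stayed positive, and over all 8 alternatives it ran from 0.47 to 0.67. Adding a pseudocount of 16 gave 0.47, under 1.5-fold.

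The other genes of the Gpr1 branch, named after their values were seen, each differed by less than 1.2-fold, as did 83.3% of all named genes. GPA2, the alpha subunit that couples to Gpr1, read 129.9 on replicate 1 and 142 on replicate 2. RGS2, which speeds the return of Gpa2 to its inactive state, was dim on both arrays, at 9.84 on replicate 1 and 10.98 on replicate 2. The kelch repeat proteins Gpb1 and Gpb2 bind Gpa2 and lower PKA signalling. GPB1 read 67.0 and 70.2, and GPB2 read 27.7 and 23.2. GPA2, RGS2 and GPB1 were brighter and GPB2 was dimmer on replicate 2.

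The Ras GTPases are encoded by a pair of similar genes. RAS1 (YOR101W, chromosome XV) read 47.8 on replicate 1 and 53.3 on replicate 2, a mean of 50.6 ± 3.89 and a log2 ratio of 0.16. RAS2 (YNL098C, chromosome XIV) read 144 and 155, a mean of 149.7 ± 7.82 and a log2 ratio of 0.11. Both were brighter on replicate 2 by little, 1.12-fold and 1.08-fold, and each had a probe set assigned to it alone. Among the 200 genes nearest in signal, 55 differed as much as RAS1 and 79 as much as RAS2.

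The regulators of Ras gave a wide span of signals. CDC25, the exchange factor that loads Ras with GTP, read 22.2 and 20.6, and its relative SDC25 read 6.33 and 6.11, little above the controls. IRA1, a GTPase activator that turns Ras off, read 87.8 and 85.3. TFS1, an inhibitor of carboxypeptidase Y that also binds Ira2, read 412 and 396, and was named after its values were seen. All 4 were slightly lower on replicate 2. The 10 regulators of Ras, cyclase and PKA, all measured, had a median of 47.0 ± 0.481, and 5 of the 10 lay above the median gene. This SD covers the 2 arrays and not the choice of probe sets. With the brightest probe set of each gene the median was 77.6. None of the 10 passed 1.5-fold, which 3.41% of all named genes did. Of the regulators 3 were brighter on replicate 2 and 7 dimmer, and their median log2 ratio was -0.046 beside -0.030 over all named genes.

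Ras must be given a lipid tail to reach the membrane. RAM1 and RAM2, the subunits of farnesyltransferase, read 26.7 and 26.4, and 60.5 and 57.7, on replicates 1 and 2. STE14, the methyltransferase of the farnesylated end, read 41.1 and 43.6, and RCE1, a protease that trims that end, read 21.5 and 19.7. All 7 genes of this list were measured, with a median of 44.7 ± 0.976. They differed by less than 1.2-fold between cultures, as did 89.6% of kept genes, with 3 brighter and 4 dimmer on replicate 2.

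CYR1 (YJL005W, chromosome X), the adenylyl cyclase gene, is the longest member at 6081 bases, and the only one with several probe sets. Taken as the mean log2 signal of its 9 probe sets, it read 7.42 on replicate 1 and 7.65 on replicate 2, a mean of 7.53 ± 0.165. That mean stands for no single probe set. The brightest, 3072_s_at, read 81.7 and 85.0. The probe set 11016_at, numbered apart from the rest, read 59.7 and 60.7, and 3071_s_at read 19.7 and 19.5. These 3 repeated closely, with log2 ratios from -0.014 to 0.058, so both cultures had a signal well above the controls for this gene.

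The other 6 CYR1 probe sets were dim. Both 3068_s_at, at 5.63 and 5.68, and 3069_s_at, at 5.43 and 5.80, repeated closely just above the controls. The probe sets 3070_s_at, at 7.10 and 4.50, and 3073_s_at, at 14.0 and 8.76, were both lower on replicate 2 by over 1.5-fold. The last pair, 3066_at at 0.192 and 0.247 and 3067_g_at at 1.21 and 2.78, did not reach the controls. From the dimmest to the brightest, the means spanned 8.57 log2 units, beside a median of 7.29 and a range from 3.59 to 11.1 over the 17 genes with 9 or more probe sets. The place of each probe set along the gene was not analysed here.

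IRA2, the second Ras GTPase activator and another long gene at 9240 bases, showed the same kind of spread. Its 11 probe sets ran from 0.123 to 123 in mean signal, and 6 of them lay above the controls on both arrays. The brightest, 8617_at, read 118 on replicate 1 and 127 on replicate 2. As with CYR1, the bright probe set differed little between cultures, and the gene mean over the 10 probe sets with signal on both arrays, 7.36 and 6.47, lay far under it. The 5 dimmer sets above the controls, numbered 2620 to 2624, were all lower on replicate 2, with log2 ratios from -0.98 to -0.076. IRA2 is another of the 17 genes with 9 or more probe sets with signal on both arrays.

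**Figure D2:**
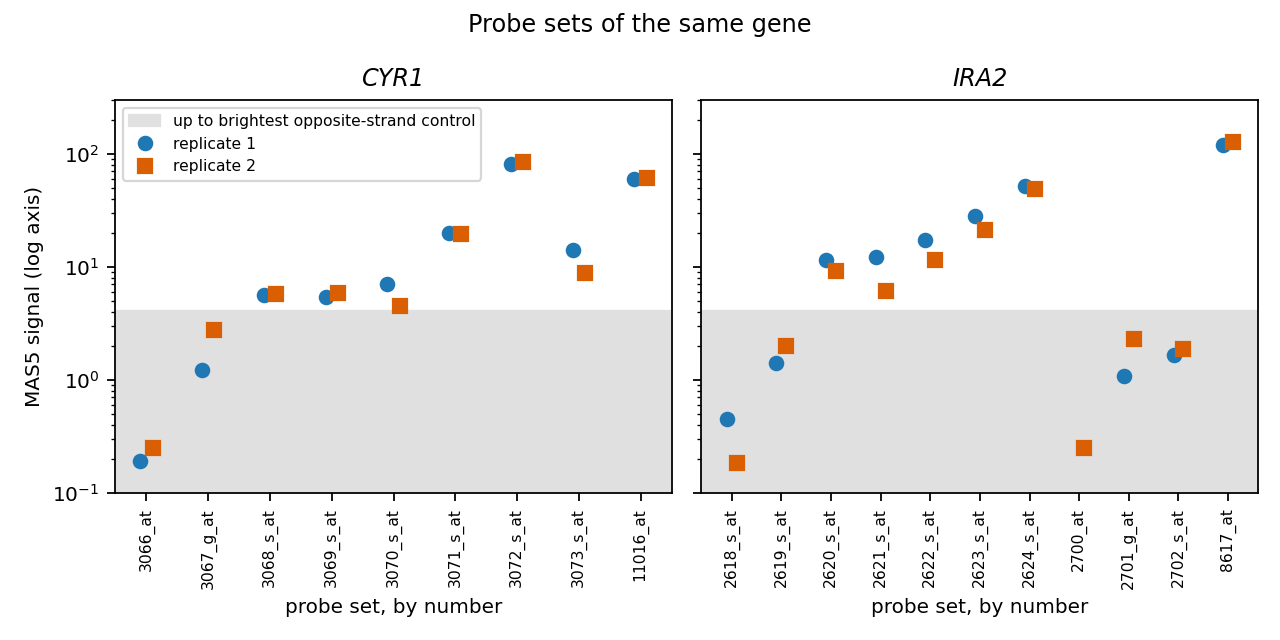
Signal of every probe set of CYR1 (9) and IRA2 (11) on replicate 1 (circles) and replicate 2 (squares), log axis, in order of probe set number, with grey up to the brightest opposite-strand control (4.07). Probe sets of the same gene differ far more than the arrays do, and 2700_at of IRA2 has a value of 0 on replicate 1 and shows only replicate 2.

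SRV2, the cyclase-associated protein that Ras needs to activate the enzyme and that also binds actin, read 364 on replicate 1 and 355 on replicate 2. It was named after its values were seen.

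The phosphodiesterase genes went opposite ways by little. PDE1 (YGL248W, chromosome VII) encodes the low-affinity enzyme, which acts on cAMP made after glucose is added. It read 65.7 on replicate 1 and 73.4 on replicate 2, a mean of 69.5 ± 5.42 and a log2 ratio of 0.16. PDE2 (YOR360C, chromosome XV), the high-affinity enzyme, read 62.8 and 55.8, a mean of 59.3 ± 4.94 and a log2 ratio of -0.17. Neither reached 1.2-fold, which 10.4% of kept genes did, so the opposite signs are within the spread between these cultures.

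BCY1 (YIL033C, chromosome IX), the regulatory subunit that holds PKA inactive without cAMP, read 219 on replicate 1 and 209 on replicate 2, a mean of 214 ± 7.0. TPK2 (YPL203W, chromosome XVI), the catalytic subunit known for promoting filamentous growth, read 92.9 and 87.8, a mean of 90.4 ± 3.62. TPK3 (YKL166C, chromosome XI), a catalytic subunit linked to mitochondrial function, read 43.5 and 38.1, a mean of 40.8 ± 3.81. All 3 PKA subunit genes were lower on replicate 2, by 1.05-fold, 1.06-fold and 1.14-fold. Among kept genes, 2442 of 4242 were lower on replicate 2, so this shared sign is that of most genes.

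Over the 9 members, 5 were brighter and 4 dimmer on replicate 2. The median log2 ratio was 0.045, the value of CYR1, beside -0.030 over all named genes. Over the 8 kept members it was 0.020, beside a median of -0.023 and an SD of 0.20 over kept genes. The sign of the 9-gene median is not settled, since it turned negative under 3 of 8 alternatives, to between -0.067 and -0.019. Only GPR1 lay outside the central 95% of kept genes, -0.43 to 0.31. Of the 18 protein-coding genes that flank the members, 17 were measured. None of these passed 1.5-fold, which 3.41% of all named genes did. The flanking genes had log2 ratios from -0.43 for CRC1 beside RAS1 to 0.17 for SLM3 beside GPR1.

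**Figure D3:**
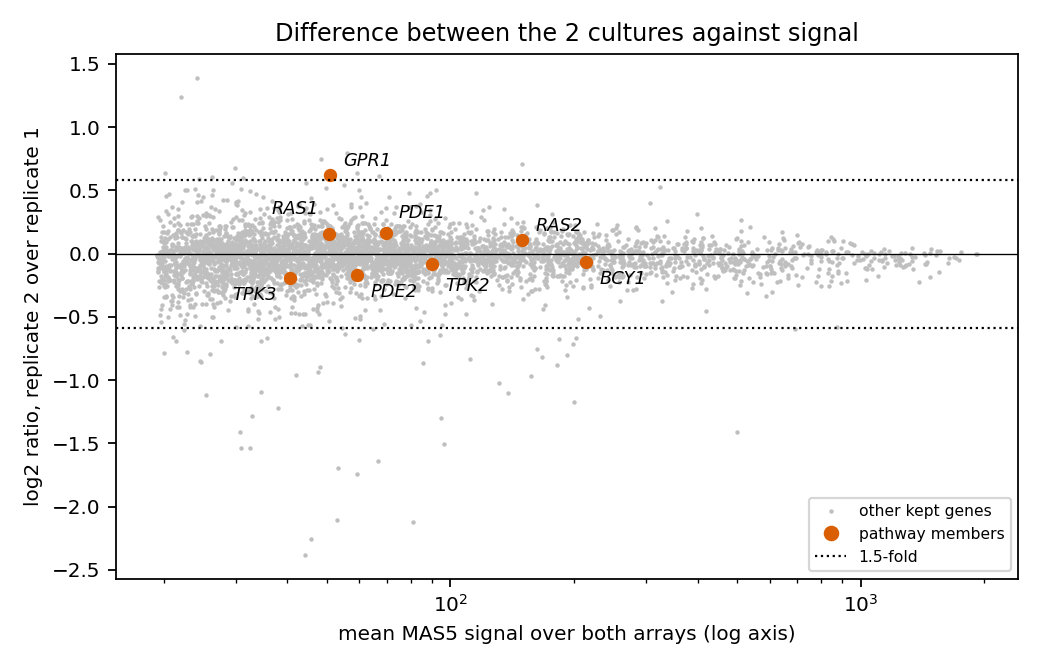
Log2 ratio of replicate 2 to replicate 1 against mean signal (log axis) for the 4242 kept genes (grey) and the 8 kept pathway members (orange), with dotted lines at 1.5-fold. GPR1, at 0.62, is above the upper line, and the other 7 lie between -0.19 and 0.16. CYR1 is under the signal filter and is not drawn.

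Kinases and transcription factors that act below PKA or beside it were next. YAK1, a kinase that slows growth and that PKA opposes, had 3 probe sets and read 59.8 on replicate 1 and 63.2 on replicate 2. RIM15, the kinase for entry into stationary phase that PKA inhibits, read 86.7 and 80.3. SCH9, a kinase parallel to PKA, read 57.4 and 57.3. MSN2, the stress factor that PKA keeps out of the nucleus, read 55.0 and 63.7. All 14 genes were measured, with a median of 54.2 ± 2.77, and 10 lay above the median gene.

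Of these 14 genes, 12 differed by less than 1.2-fold, beside 83.3% of all named genes. ADR1, an activator of glucose-repressed genes that PKA inhibits, read 58.2 and 47.2 and was named after its values were seen. SOK1, a gene that at high copy rescues cells without PKA activity, read 47.2 and 22.1, a log2 ratio of -1.09. It was the 1 gene of the list past 1.5-fold, beside 1.51% of all kept genes. Its probe set number, 6467, lies in the run from 6178 to 6594, which was drawn around genes past 2-fold lower, SOK1 among them, so the low values in it are partly the choice itself. Its 10 number neighbours had a median log2 ratio of -0.088. The genes of the lists used here that lie in this run are all on chromosome IV, so within the run number and chromosome cannot be told apart. Chromosome IV also holds list genes outside the run, such as STE14 at number 6061, with a log2 ratio of 0.084. The part of number or chromosome in the SOK1 value was not tested.

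Genes that Msn2 and Msn4 switch on, and that PKA activity thereby lowers, ran from 14.2 to 1264 in mean signal. All 24 were measured, with a median of 150.0 ± 7.68, and 22 lay above the median gene of 42.0. HSP12, a membrane-protecting stress protein, read 1309 on replicate 1 and 1218 on replicate 2. CTT1, the cytosolic catalase, read 47.4 and 53.6, and the small heat shock gene HSP26 read 242 and 223. DDR2, a stress gene named for DNA damage, read 448 and 459. Those below the median gene were GAC1, the gene of a glycogen-targeting subunit of the Glc7 phosphatase, at 14.2 ± 1.24, and the aldehyde dehydrogenase gene ALD3, at 31.5 ± 1.04, both named after their values were seen. Without wild-type cells it cannot be told whether these levels differ from those of cells with normal H3.

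Between cultures, 20 of the 24 targets, or 83.3%, differed by less than 1.2-fold, the same share as of all named genes. Over the whole list 9 were brighter and 15 dimmer on replicate 2. Their median log2 ratio was -0.030, beside -0.030 over all named genes. TPS2, the trehalose phosphatase gene, read 127 and 91.4, GPH1, the glycogen phosphorylase gene, 106 and 134, and the disaggregase gene HSP104 297 and 243, all named after their values were seen. PGM2, the main phosphoglucomutase, read 176 and 86.7, a log2 ratio of -1.02, and was the 1 target past 1.5-fold, beside 1.51% of kept genes. Its probe set number, 9547, lies in the second run, 9334 to 9924, which held the other 10 kept genes past 2-fold lower. That run too was drawn around such genes, PGM2 among them. The genes of the lists used here that lie in it are all on chromosome XIII. The part of number or chromosome, which cannot be told apart within the run, in the PGM2 value was not tested.

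**Figure D4:**
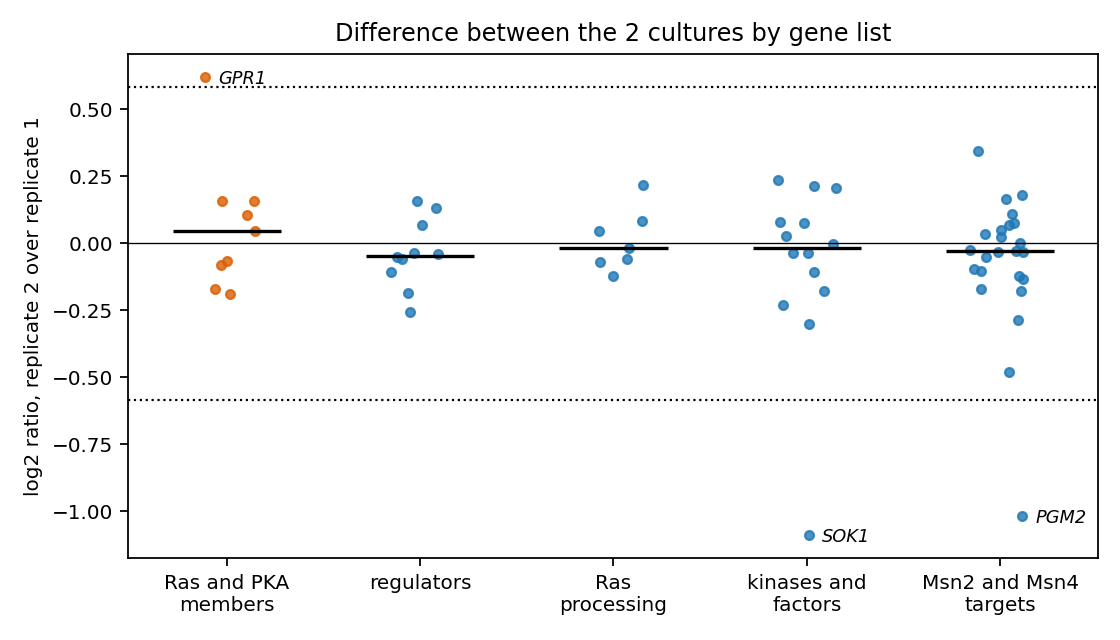
Log2 ratio of replicate 2 to replicate 1 for the 9 members (orange) and the measured genes of 4 other lists (blue), with a bar at each list's median and dotted lines at 1.5-fold. The medians lie between -0.046 and 0.045, and GPR1, SOK1 and PGM2 are the 3 genes past the lines.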

How the data were processed

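Biotin-labelled cRNA was prepared from about 20 ug of total RNA, per the labels' protocols, and 1 array was run per culture. The deposited values are linear intensity values, 1 for each probe set, and MAS5 is the tool that the submitters' processing notes name. Its version and scaling basis are not stated in the labels, and detection calls were not used here. Names came from the platform annotation, matched by gene identifier to RefSeq's R64 table: 6504 probe sets had 1 gene, 328 had several and were not used, 60 were controls and 2443 are unnamed here. Log2 signals of a gene's probe sets were averaged, leaving out probe sets at 0 on either array, with no pseudocount. For coordinates no build is given with the array, so none are printed.

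Both replicates form 1 group, so the cultures were compared by a log2 ratio, replicate 2 over replicate 1, with no test. The number of arrays limits the precision. The members and lists were chosen with earlier results of these data known. All members, the first 4 measured genes of each list and every list gene past 1.5-fold were named, and others are marked in the text. A further gene planned as a regulator is not reported here. The fold count was tested on simulated data. The closing section lists the alternatives. Python 3.11.15, numpy 2.4.6, pandas 2.3.3, statsmodels 0.14.6 and matplotlib 3.10.9 were used.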

Additional observations from a re-analysis of the deposited data

How the results depend on the processing

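The choices tried were quantile normalisation, median centring, a lowess curve, the brightest probe set, plain probe sets only, a pseudocount of 16, a correction by 5 probe sets on each number side, another fold and, added after seeing the data, only probe sets above the opposite-strand controls. The members past 1.5-fold were 1 under each of these but the pseudocount of 16 and the 2-fold size, which both gave 0. Without the signal filter the background was 3.41% of genes past 1.5-fold, in place of 1.51%. With the brightest probe set the median signal was 69.5 for members, 77.6 for regulators and 59.0 for kinases and factors. Plain probe sets gave 77.6 and 50.1 for regulators and for kinases and factors, and probe sets above the controls gave 59.0 for the latter. CYR1 is the member with several probe sets, and its signal was 83.4 with the brightest probe set, 15.3 above the controls and 3.63 with plain probe sets. Its log2 ratio changed sign under 3 of 8 alternatives, -0.17 above the controls, and that of BCY1 under 1, to 0.055. The other 7 members kept their sign. The members' median log2 ratio was -0.019 with quantile normalisation, -0.026 with the pseudocount and -0.067 above the controls. Leaving out a replicate gave member medians of 61.5 and 62.8, regulators 46.7 and 47.4, Ras processing 44.0 and 45.4, kinases and factors 52.3 and 56.2, and Msn2 and Msn4 targets 144 and 155. No paired analysis was possible because the arrays form a single group.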

Other observations

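The mating type genes were not part of the comparisons. Each of the 6 a-specific genes had a mean signal above the median gene, among them STE2, the alpha-factor receptor gene, at 96.3 ± 0.530, BAR1, the gene of the protease that cuts alpha-factor, at 94.4 ± 4.54, and the a-factor genes MFA1 and MFA2, at 105 ± 8.91 and 393 ± 21.8 (SD, n = 2). The MFA1 value averages the log2 signals of 2 probe sets, at 44.65 and 247.6 in mean signal, and stands for neither. Of the 4 alpha-specific genes, 1 lay above the median gene, SAG1 at 56.1 ± 4.11, and STE3, the a-factor receptor gene, lay at 8.06 ± 0.465. The alpha-factor genes MF(ALPHA)1 and MF(ALPHA)2 lay at 22.7 ± 0.876 and 9.84 ± 1.18. None of the 10 differed between cultures by 1.2-fold or more, and neither did 83.3% of all named genes.

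Besides GPR1, 12 kept genes were higher on replicate 2 by 1.5-fold or more. Those named here were picked after their values were seen and stand for no theme. The largest ratios were those of RDN25-1, at 13.3 and 34.9 on replicates 1 and 2, and ALD6, at 13.1 and 30.9. Each of these 2 genes is a mean over 2 probe sets. UTP18, a gene of the small ribosomal subunit processome, read 46.5 on replicate 1 and 72.1 on replicate 2, and EXG2, a cell wall glucanase gene, read 52.9 and 80.8. TOS3, a kinase that activates Snf1, the glucose repression kinase, read 19.4 and 29.3.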
